A study of Homo sapiens and Mus musculus with 12 samples.

Results

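The genes that carry a signal from the receptors of a natural killer (NK) cell into the cell were followed in RNA-seq counts of EHMT2-deficient mouse NK cells and of a human NK line treated with an EHMT2 inhibitor. The set was given as a list of 50 symbols, from SRC and SYK family kinases through adaptors, phosphatases and lipid enzymes to the RAS/MAPK, PI3K/AKT and NFAT arms. All 50 were found among the 22021 genes of the mouse table, and all 50 passed the filter on low counts that left 13189 genes for testing. Of the 18304 genes of the human table, 47 belonged to the set, and all 47 were among the 12727 genes tested. VAV2, PIK3R5 and NFATC1 were not analysed here in human cells.

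Mouse libraries came from CD3−NK1.1+ NK cells of the spleen of C57BL/6J mice, described in the study as 8 to 12 weeks old. WT mice carried loxP sites in both copies of Ehmt2 (Ehmt2 flox/flox) without Cre, and KO mice carried the same alleles together with Ncr1-iCre, a recombinase made from the gene of the NKp46 receptor and so in cells that have begun to express it. Each genotype had 3 libraries. The genotype label of the KO samples reads Ezh2-KO where their titles name EHMT2, and the titles were followed. Human libraries came from NK92MI, one established malignant NK line that makes its own IL-2, given BIX-01294, an inhibitor of the EHMT2 and EHMT1 methyltransferases, or the solvent DMSO, again with 3 libraries each. The DMSO libraries are called columns 1 to 3, because the table does not link them to the numbered samples. The dose stated for these cells in the study's functional assays was 0.25 µM for 5 days, and it was not stated separately for sequencing. Nothing in the human labels says that the libraries were separate cultures, so their p-values measure the spread between these libraries, which may be technical.

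NK receptors such as NKp46 and CD16 have no enzyme of their own. Their partner chains are phosphorylated by SRC family kinases such as LCK, FYN and LYN, and recruit SYK or ZAP70, which phosphorylate LAT, LAT2 and LCP2 (SLP-76). These scaffolds gather VAV exchange factors and phospholipase C gamma, whose products raise calcium for calcineurin and NFAT and activate protein kinase C and, through RASGRP1 and SOS, RAS and the MAP kinases. CSK, the phosphatases PTPN6 (SHP-1), PTPN11 and PTPN22, the lipid phosphatase INPP5D (SHIP-1), the ubiquitin ligases CBL and CBLB, the diacylglycerol kinases DGKA and DGKZ and the RAS GTPase activator RASAL3 restrain this chain.

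The mouse libraries held 25891680 (WT replicate 2) to 37438868 counts, the human ones 16579469 to 17165446, and the set took 1.35% to 1.66% and 0.779% to 0.945% of them. Levels are given in CPM, the TMM-scaled number of a gene's counts in each 1e6 counts of its library. A gene was called when edgeR's quasi-likelihood test gave it an adjusted p (Benjamini-Hochberg, over all genes tested) under 0.05. Ehmt2 was counted at 275, 284 and 285 CPM in WT and at 171, 143 and 137 CPM in KO libraries (log2 fold change −0.91, SE 0.10, adjusted p = 0.0162 by edgeR), although counts per gene do not show which part of the gene the remaining reads cover. EHMT2 was at 54.3 to 61.6 CPM with DMSO and 35.8 to 40.4 CPM with BIX-01294.

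Mouse libraries also differed in the markers of the cells they hold. All 12 NK markers had higher means in KO, 7 of them called, and their summed level was 5480, 9300 and 5715 CPM in WT replicates 1 to 3 against 10439, 12292 and 12074 CPM in KO replicates 1 to 3. All 12 macrophage and monocyte markers had lower means in KO, 8 of them called, with sums of 3050 to 9142 CPM in WT and 1552 to 2851 CPM in KO. All 12 B cell markers had lower means, 2 of them called, with sums of 707 to 1883 against 144 to 643 CPM. The tested markers of neutrophils (7), dendritic cells (6), erythroid cells (7, all called) and platelets (6) also had lower means in KO, as did 6 of 8 T cell markers, although the 1 called was higher in KO. In the NK, macrophage and B cell sums WT replicate 2 was the WT library nearest to KO and KO replicate 1 the KO library nearest to WT. Fewer cells of a type and less RNA per cell cannot be told apart in such bulk libraries. Defining genes of the other lists were counted in both groups: Csf1r, the macrophage growth factor receptor, had 521 to 1285 CPM in WT and 321 to 432 CPM in KO, and Cd79a, a chain of the B cell receptor, had 134 to 397 and 8.03 to 122 CPM. In NK92MI cells the 12 NK markers, 6 of them called higher and 4 lower, summed to 5942 to 6361 CPM with DMSO and 7541 to 9357 CPM with BIX-01294. Of the 8 listed myeloid markers only 3 were present in the human counts, and these summed to at most 5.24 CPM in any library.

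To see how the set behaved as a whole, its calls were set beside those of all genes tested. In mouse, 2 of 50 members were called higher in KO, beside 4.44% of all genes, and 2 were called lower, beside 7.43%. At this threshold these shares of the set, 4% each, were no larger than those of all genes. At the study's own threshold (adjusted p under 0.01 and an absolute log2 fold change over 0.5) edgeR called 0% of all genes in either direction and 0 members. The study applied that threshold with DESeq2 and reported genes called in both directions in these cells. At an unadjusted p under 0.05 in edgeR, 15 of 50 members were higher, a larger share than the 15.8% of all genes. On the lower side 6 of 50 passed, a smaller share than the 20.01% of all genes. DESeq2 at an adjusted p under 0.05 called 9 of 50 members higher, a larger share than the 8.33% of all genes. It called 5 of 50 lower, beside 15.1%. In NK92MI cells many more members were called. With BIX-01294, 24 of 47 members (51.1%) were called lower, beside 18.4% of all genes, and 8 (17%) were called higher, beside 18.4%. At the study's threshold 9 members (19.1%) were lower, beside 5.43% of all genes, and 0 were higher, beside 6.24%, and DESeq2 called 0 higher at an adjusted p under 0.05 with the same fold limit. At an unadjusted p under 0.05 in edgeR, 26 members were lower, beside 23.2% of all genes, and 8 higher, beside 22.9%. The median log2 fold change of the set was −0.20 in NK92MI, where that of all genes was −0.01, and 0.10 in mouse, where that of all genes was 0.01.

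**Figure D1:**
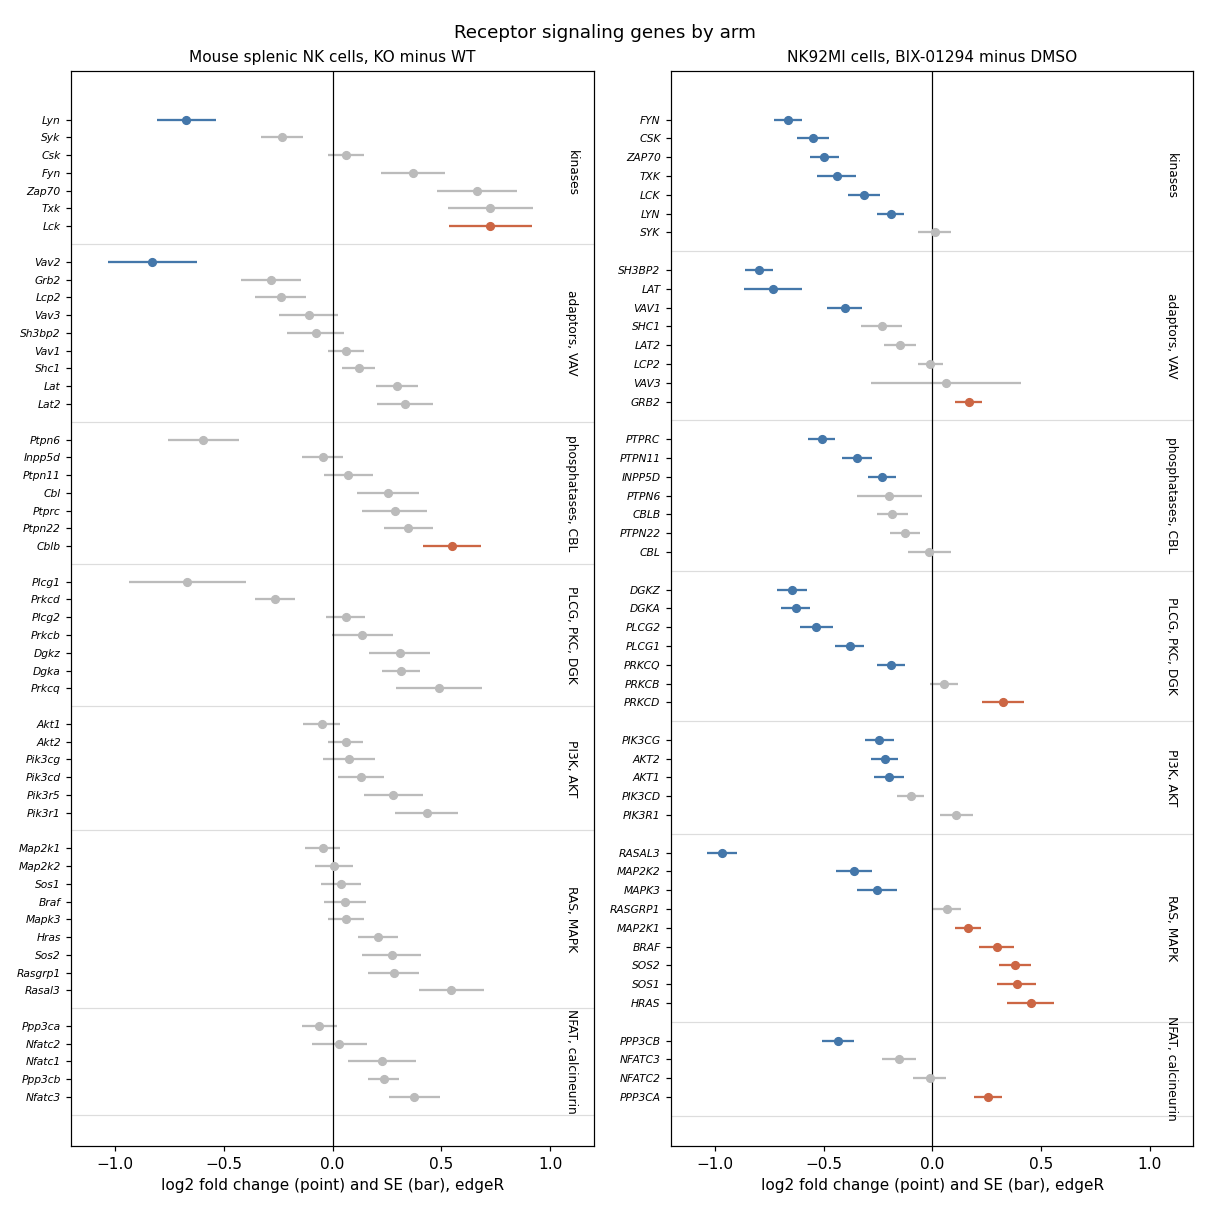
Log2 fold change of every gene of the set (points) with its standard error (bars), by arm, for KO minus WT in mouse splenic NK cells (left, 50 genes) and BIX-01294 minus DMSO in NK92MI cells (right, 47 genes). Orange and blue mark genes called higher and lower by edgeR and gray those not called: 2 and 2 in mouse, 8 and 24 in NK92MI. In NK92MI 6 of 7 kinases were lower and 5 of 9 genes of the RAS/MAPK arm higher, beside 18.4% of all genes in each direction.

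The kinases at the head of the chain were lower in BIX-01294-treated NK92MI cells. Of 7 kinases 6 were called lower and 0 higher, beside 18.4% of all genes in each direction, with a median log2 fold change of −0.44. FYN, a SRC family kinase, was at 289, 291 and 270 CPM in DMSO columns 1 to 3 and at 172, 176 and 189 CPM in BIX replicates 1 to 3 (log2 fold change −0.66, SE 0.06, adjusted p = 4.37e-06 by edgeR). Every treated library lay below every control library, a 1.59-fold lower mean. ZAP70, which docks on phosphorylated receptor chains, had 261, 288 and 263 CPM with DMSO and 183, 189 and 203 CPM with BIX-01294 (log2 fold change −0.50, SE 0.07, adjusted p = 7.47e-05). CSK, which holds SRC family kinases in their inactive form, fell with the kinases it restrains, from 255, 269 and 251 CPM to 180, 159 and 192 CPM (log2 fold change −0.55, SE 0.07, adjusted p = 6.9e-05). TXK, a TEC family kinase, had 139, 136 and 156 CPM against 102, 122 and 93.9 CPM, and LCK 82.6, 92.2 and 81.3 CPM against 66.9, 67.3 and 71.6 CPM, again without overlap. The smallest kinase difference called was that of LYN (log2 fold change −0.19, SE 0.06, adjusted p = 0.0245), whose adjusted p was 0.14 without DMSO column 1, 0.0615 without DMSO column 3 and 0.088 without BIX replicate 1. SYK was the exception, with 48.9, 48.8 and 47.8 CPM in control and 49.8, 51 and 45.8 CPM in treated libraries (log2 fold change 0.01, SE 0.08), which overlapped.

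Promoter sequences are shown for a pair of genes that fell and one that rose, to show how far promoters within the set differ. The windows are those of RefSeq on GRCh38.p14, the build family of the human reads, from 250 bases before to 50 bases after 1 start site per gene, 5′ to 3′ on the coding strand, with each CG dinucleotide in capitals. ZAP70 (chr2:97713326-97713625, plus strand) holds 7 CG, SH3BP2 (chr4:2792835-2793134, plus strand) 43 and HRAS (chr11:535527-535826, minus strand) 40.
ZAP70: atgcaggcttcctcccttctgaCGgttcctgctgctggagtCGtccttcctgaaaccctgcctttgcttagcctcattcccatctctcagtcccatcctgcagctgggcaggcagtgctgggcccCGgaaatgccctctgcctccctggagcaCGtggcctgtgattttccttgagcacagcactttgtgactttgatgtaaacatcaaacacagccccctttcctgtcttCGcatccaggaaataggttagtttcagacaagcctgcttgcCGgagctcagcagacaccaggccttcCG
SH3BP2: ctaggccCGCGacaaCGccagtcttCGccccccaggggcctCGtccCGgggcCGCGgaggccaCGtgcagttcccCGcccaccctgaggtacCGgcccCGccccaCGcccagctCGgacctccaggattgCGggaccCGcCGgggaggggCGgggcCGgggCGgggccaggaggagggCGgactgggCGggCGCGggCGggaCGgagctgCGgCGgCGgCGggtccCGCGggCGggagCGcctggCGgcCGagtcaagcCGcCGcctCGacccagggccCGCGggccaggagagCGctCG
HRAS: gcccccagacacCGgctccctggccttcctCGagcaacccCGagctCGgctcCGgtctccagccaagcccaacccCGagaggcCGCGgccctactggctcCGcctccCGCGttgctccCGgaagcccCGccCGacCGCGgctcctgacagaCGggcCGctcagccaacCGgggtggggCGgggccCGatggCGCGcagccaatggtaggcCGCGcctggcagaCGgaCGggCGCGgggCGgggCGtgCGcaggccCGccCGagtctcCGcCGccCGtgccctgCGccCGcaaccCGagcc
Windows were found for 41 of 47 members, and not for CBL, LAT2, LYN, PPP3CA, PPP3CB and PTPN11. The median was 12 CG in the 21 matched members called lower, with a range of 1 to 49, and 34 in the 7 matched members called higher, with a range of 9 to 42, beside 14 in all 27305 promoters of the table. At least 20 CG stood in 9 of the 21 (42.9%), in 5 of the 7 (71.4%) and in 41.2% of all promoters. The letter pair CG reads the same on both strands. These counts describe sequence, and no binding or methylation was measured at these windows here. Low-CG windows among the genes that fell included those of PTPRC (1), TXK (4), CSK (4), ZAP70 (7), LAT (8), RASAL3 (8) and PLCG2 (8), and high-CG ones those of SH3BP2 (43), PLCG1 (47) and AKT1 (49), so the fall was seen in both kinds.

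Among adaptors and VAV factors the fall was uneven in NK92MI cells. SH3BP2, an adaptor that binds SYK family kinases and PLCG, was at 148, 155 and 147 CPM with DMSO and 87.3, 88.5 and 83.2 CPM with BIX-01294 (log2 fold change −0.80, SE 0.06, adjusted p = 7.06e-07 by edgeR), a 1.74-fold lower mean. LAT, the transmembrane scaffold, was scarce, with 18, 14.3 and 18.6 CPM falling to 9.5, 11.6 and 9.62 CPM (log2 fold change −0.73, SE 0.13, adjusted p = 7.98e-04), on 156 to 315 reads per library. The exchange factor VAV1 fell from 113, 122 and 109 CPM to 89.4, 76.8 and 93.5 CPM. None of these groups overlapped. LCP2, the scaffold that joins LAT to VAV1 and PLCG, had overlapping values of 510, 521 and 512 CPM against 529, 510 and 494 CPM (log2 fold change −0.01, SE 0.06). LAT2, the close relative of LAT, had 67.2, 67.3 and 59.9 CPM against 59.9, 56.2 and 59.3 CPM (log2 fold change −0.15, adjusted p = 0.134). GRB2, which carries SOS to the scaffolds, was the only member of this arm called higher, at 195, 181 and 185 CPM against 209, 206 and 215 CPM (log2 fold change 0.17, SE 0.06, adjusted p = 0.0444), and it was called in 1 of the 6 fits that left out a library, with adjusted p of 0.0668 to 0.14 in the other 5. SHC1, a further adaptor of the GRB2 route, was not called (log2 fold change −0.23, adjusted p = 0.0662), and VAV3 was at or under 1.92 CPM in every library.

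Genes on both sides of the balance that sets diacylglycerol fell in NK92MI cells. The diacylglycerol kinases, which remove the lipid that activates RASGRP1 and protein kinase C, were both called lower: DGKA was at 75.8, 76.3 and 74.1 CPM with DMSO and 48.8, 48.1 and 49.4 CPM with BIX-01294 (log2 fold change −0.63, SE 0.07, adjusted p = 1.04e-05 by edgeR). DGKZ had 321, 357 and 315 CPM against 204, 205 and 226 CPM, and the ratio of DGKZ to DGKA was 4.24 to 4.68 in control and 4.19 to 4.57 in treated libraries, which overlapped. The phospholipases that make that lipid fell as well. PLCG2 went from 87.1, 95.2 and 87 CPM to 58.7, 67.8 and 59.6 CPM (log2 fold change −0.53), and PLCG1 from 216, 222 and 208 CPM to 161, 177 and 158 CPM (log2 fold change −0.38). Of the protein kinases C, PRKCB was not called (log2 fold change 0.05, SE 0.06). PRKCQ had 115, 119 and 118 CPM against 105, 106 and 96.8 CPM (adjusted p = 0.0326), and it was called in 1 of the 6 fits that left out a library, with adjusted p of 0.0731 to 0.101 in the other 5. PRKCD rose from 20.5, 18.2 and 18.5 CPM to 23.3, 23.2 and 25.3 CPM (adjusted p = 0.0173), with an adjusted p of 0.0678 without DMSO column 2 and of 0.0705 without DMSO column 3.

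Of 7 phosphatases and CBL ligases 3 were called lower in NK92MI and 0 higher, beside 18.4% of all genes in each direction. All 7 had a log2 fold change under 0. PTPRC (CD45), which removes the inhibitory phosphate from SRC kinases and so opposes CSK, fell from 1132, 1052 and 1124 CPM to 783, 812 and 729 CPM (log2 fold change −0.51, SE 0.06, adjusted p = 3.43e-05 by edgeR). PTPN11 (SHP-2) went from 367, 337 and 347 CPM to 275, 295 and 257 CPM (log2 fold change −0.35), without overlap. INPP5D, which removes a phosphate from the lipid made by PI3K, was called at a log2 fold change of −0.23 (adjusted p = 0.0112, and 0.0546 without DMSO column 2). PTPN6, PTPN22, CBL and CBLB were not called, with log2 fold changes of −0.20, −0.13, −0.01 and −0.18. Of the 5 genes of the PI3K/AKT arm 3 were called lower, beside 18.4% of all genes, by small amounts: PIK3CG (−0.24), AKT2 (−0.22) and AKT1 (−0.20). Their adjusted p rose to 0.0559 for PIK3CG without DMSO column 1, to 0.0678 and 0.112 for AKT2 without DMSO column 2 and BIX replicate 1, and to 0.0601, 0.168 and 0.161 for AKT1 without DMSO column 1, DMSO column 2 and BIX replicate 1. PIK3CD and PIK3R1, the delta catalytic subunit and the p85 alpha regulatory subunit, had log2 fold changes of −0.10 and 0.11 and were not called.

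The RAS/MAPK arm held 5 of the 8 members called higher. Of its 9 genes 5 were called higher and 3 lower, beside 18.4% of all genes in each direction, with a median log2 fold change of 0.16. SOS1, the RAS exchange factor, was at 613, 560 and 632 CPM with DMSO and 789, 903 and 667 CPM with BIX-01294 (log2 fold change 0.39, SE 0.09, adjusted p = 0.00461 by edgeR). SOS2 went from 69.6, 75.7 and 76.2 CPM to 96.9, 103 and 88.5 CPM (log2 fold change 0.38), and the ratio of SOS2 to SOS1 differed by 0.00 on the log2 scale. HRAS rose from 31.4, 35.8 and 29.6 CPM to 41.5, 39.7 and 51.2 CPM, and BRAF, the kinase RAS recruits, from 83.4, 87 and 83.1 CPM to 98.9, 117 and 94.8 CPM. Against these stood RASAL3, the RAS brake of lymphocytes, with the largest fall of the set: 164, 170 and 150 CPM with DMSO and 79.6, 83.7 and 84 CPM with BIX-01294 (log2 fold change −0.97, SE 0.07, adjusted p = 2.92e-07), a 1.96-fold lower mean. RASGRP1, the exchange factor that diacylglycerol activates, was not called (log2 fold change 0.07, SE 0.07). Further down, the paired MAP2K genes split. MAP2K2 was at 138, 161 and 142 CPM against 118, 102 and 124 CPM (log2 fold change −0.36, adjusted p = 0.00384), and MAP2K1 at 104, 107 and 108 CPM against 118, 117 and 122 CPM (log2 fold change 0.16, adjusted p = 0.0492). The MAP2K1 call was kept in 1 of the 6 fits that left out a library, with adjusted p of 0.0853 to 0.193 in the other 5. MAPK3 (ERK1) was called lower although its groups overlapped, with 82.8 to 100 CPM against 70.4 to 85.6 CPM, and its adjusted p was 0.198 and 0.081 without DMSO column 2 and 3 and 0.184 and 0.0778 without BIX replicate 1 and 2.

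The calcineurin catalytic genes moved apart. PPP3CB fell from 73, 65.9 and 75.4 CPM to 53.2, 53.7 and 51.8 CPM (log2 fold change −0.43, SE 0.07, adjusted p = 4.78e-04 by edgeR), while PPP3CA rose from 178, 172 and 173 CPM to 219, 209 and 196 CPM (log2 fold change 0.26, SE 0.06, adjusted p = 0.00608). Neither pair of groups overlapped. The transcription factors they activate, NFATC2 and NFATC3, had log2 fold changes of −0.01 and −0.15 and were not called. In the 6 fits that each left out a library, 19 to 27 of 47 members were called lower, beside 12.5% to 18.7% of all genes. Of the 24, 17 were called lower in every one: CSK, DGKA, DGKZ, FYN, LAT, LCK, MAP2K2, PLCG1, PLCG2, PPP3CB, PTPN11, PTPRC, RASAL3, SH3BP2, TXK, VAV1 and ZAP70. Of the 8 called higher, 5 were called in every fit: BRAF, HRAS, PPP3CA, SOS1 and SOS2. The share of all genes that kept a call in every fit was not counted. Only 5 members in all were called higher without DMSO column 2 or without DMSO column 3, beside 14.5% and 14.2% of all genes.

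**Figure D2:**
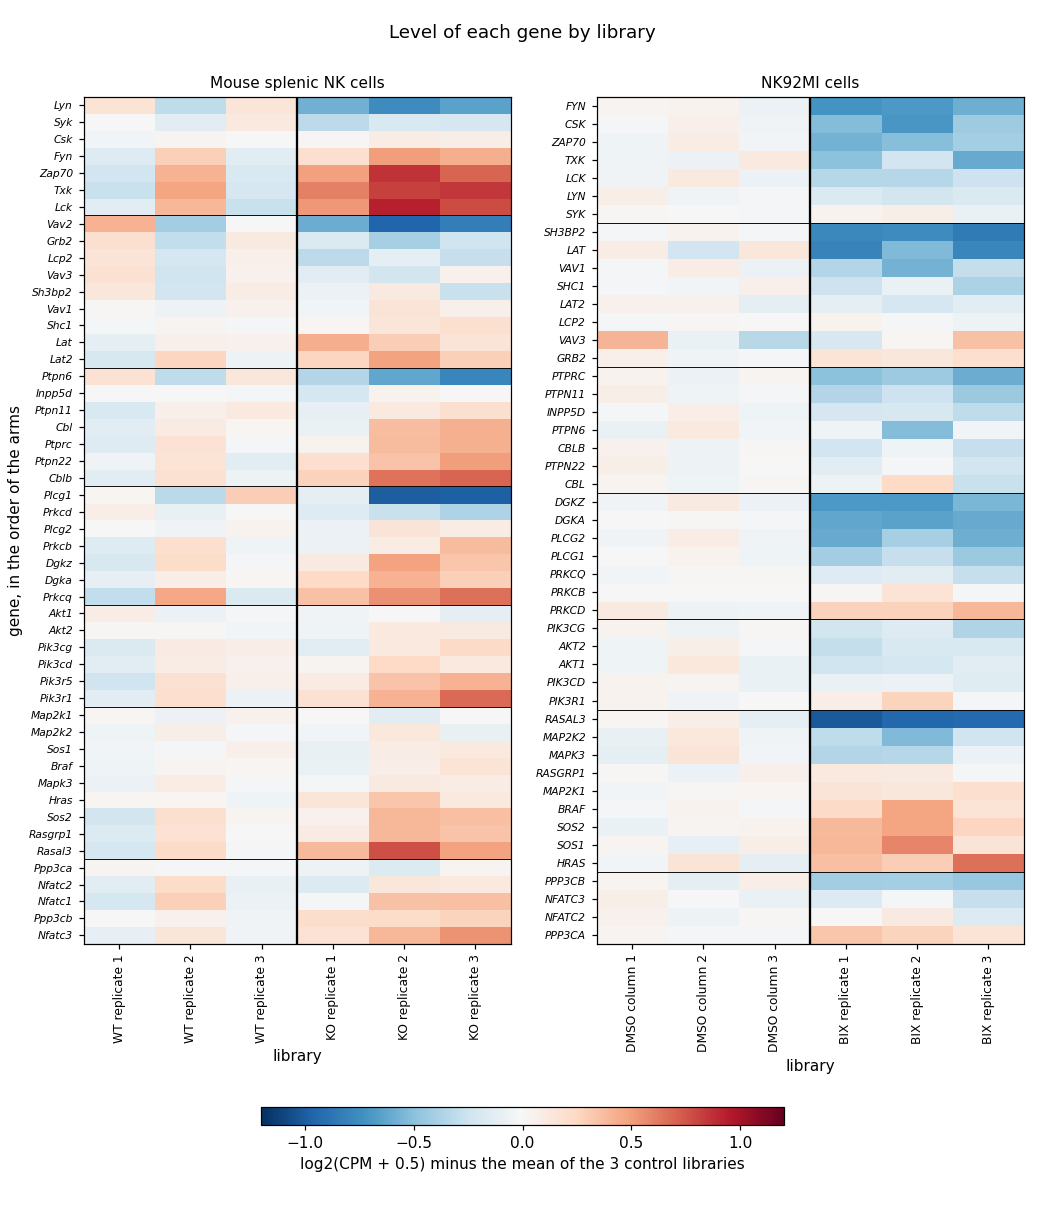
Level of every gene of the set in every library, as log2(CPM + 0.5) minus the mean of the 3 control libraries (red higher, blue lower), in the order of the arms, separated by black lines. In NK92MI the 3 DMSO columns are near 0 and the 3 BIX replicates share their colors, whereas in mouse WT replicate 2 has the colors of the KO libraries for many genes and KO replicate 1 the palest of the KO libraries.

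In mouse NK cells 4 members were called, and in all 4 WT replicate 2 was the WT library nearest to KO and KO replicate 1 the KO library nearest to WT, as in the marker sums. Lck, on chromosome 4 of GRCm38 (129548344 to 129573641, minus strand), was at 361, 520 and 328 CPM in WT replicates 1 to 3 and 567, 753 and 679 CPM in KO replicates 1 to 3 (log2 fold change 0.73, SE 0.19, adjusted p = 0.0484 by edgeR). Cblb, a ubiquitin ligase that dampens receptor signals, was at 113, 140 and 118 CPM in WT and 150, 193 and 200 CPM in KO (log2 fold change 0.55, SE 0.13, adjusted p = 0.0454). In both genes WT replicate 2 was the highest WT library and KO replicate 1 the lowest KO library, as in the NK marker sums. Lyn, also on chromosome 4 (3678115 to 3813122, plus strand) and the main SRC family kinase of B and myeloid cells, had 404, 292 and 400 CPM in WT and 242, 214 and 232 CPM in KO (log2 fold change −0.67, SE 0.14, adjusted p = 0.0345). Vav2, a VAV factor of wider expression than Vav1, had 131, 73 and 97.9 CPM in WT and 64.7, 50.5 and 54.9 CPM in KO (log2 fold change −0.83, SE 0.20, adjusted p = 0.0456). Here the order was the reverse, with WT replicate 2 lowest in WT and KO replicate 1 highest in KO, as in the macrophage and B cell sums. The part of those cells in the 4 differences was not tested. Across all 50 members WT replicate 2 was the WT library nearest to the KO mean in 41, and KO replicate 1 the KO library nearest to the WT mean in 39. The same count over all genes was not made, so these counts cannot be called particular to the set.

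The calls over all genes, members included, rested on few libraries. Without WT replicate 1, WT replicate 3, KO replicate 2 or KO replicate 3, edgeR called 0 members in either direction, and between 0% and 0.48% of all genes. Without WT replicate 2 it called 12 of 50 members higher, beside 10.7% of all genes, and 5 of 50 lower, beside 15.6%. Without KO replicate 1 it called 7 of 50 higher, beside 5.17%, and 4 of 50 lower, beside 9.96%. Without both of these, a choice made after seeing the data, it called 20 of 50 higher, beside 15.1%, and 7 of 50 lower, beside 20.5%.

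**Figure D3:**
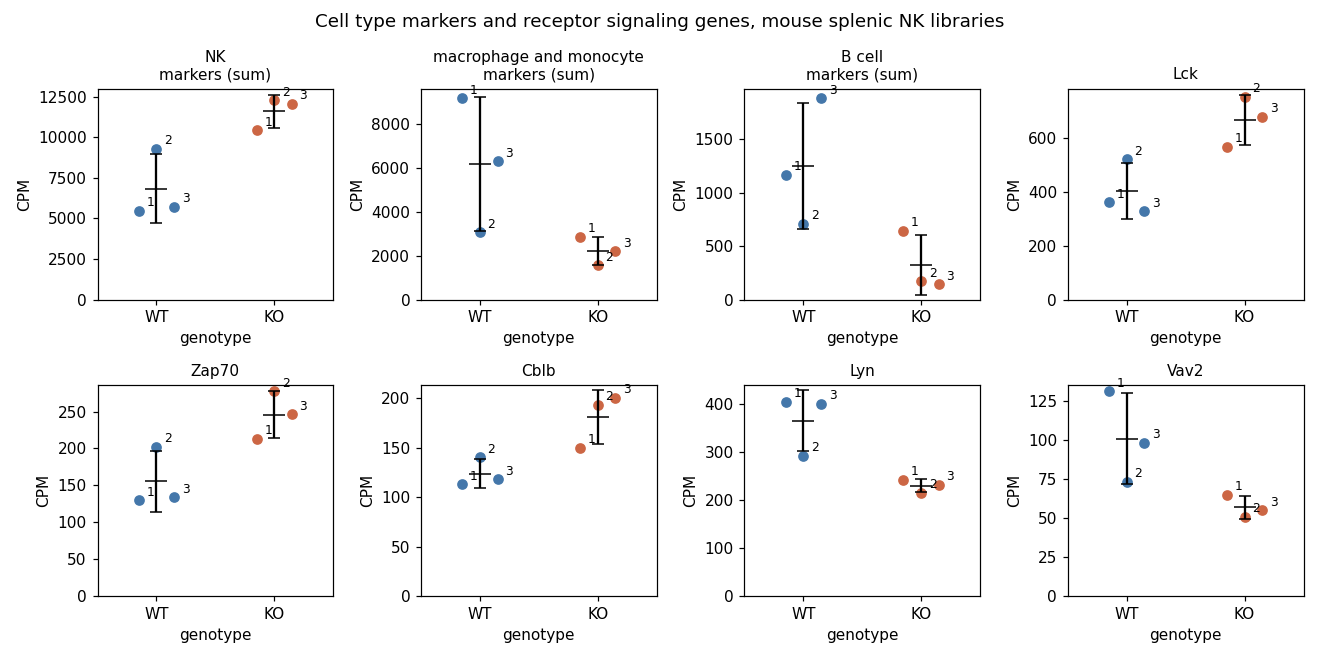
CPM in each mouse library (points, numbered by replicate) with mean and SD (bars) for the summed NK, macrophage and monocyte, and B cell markers and for Lck, Zap70, Cblb, Lyn and Vav2. WT replicate 2 lies nearest to the KO libraries in all 8 panels, with 9300 CPM of NK markers beside 5480 and 5715 CPM in the other WT libraries.

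Just short of the threshold stood the kinases Zap70 and Txk, together with Rasal3 and Ptpn6. Zap70 had 130, 203 and 134 CPM in WT and 213, 278 and 247 CPM in KO (log2 fold change 0.66, SE 0.19, adjusted p = 0.0554 by edgeR). Txk had 115 to 192 and 211 to 250 CPM (log2 fold change 0.72, adjusted p = 0.0521), and Rasal3 412 to 558 and 624 to 813 CPM (log2 fold change 0.55, adjusted p = 0.0515). These are the values nearest to a call on the higher side, and Ptpn6, the SHP-1 phosphatase of inhibitory receptors, is the nearest on the lower side, with 483 to 675 CPM in WT and 348 to 468 CPM in KO (log2 fold change −0.59, adjusted p = 0.0526). DESeq2 called all 4 of them. Fyn was at 545, 740 and 555 CPM in WT and 695, 861 and 821 CPM in KO, which overlapped, and Syk at 553, 505 and 598 CPM against 444, 485 and 479 CPM (log2 fold change −0.23, adjusted p = 0.127), which did not. Csk was not called (log2 fold change 0.06, SE 0.08).

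Few calls were made in the other mouse arms. Of 9 adaptors and VAV factors Vav2 was the one called. Lat (log2 fold change 0.30) and Lat2 (0.33) had higher values in every KO than in every WT library without being called, and Lcp2, Grb2, Sh3bp2 and Vav3 had values of −0.24, −0.28, −0.08 and −0.11, beside 0.12 for Shc1 and 0.06 for Vav1. Among phosphatases Ptprc had 1835 to 2300 CPM in WT and 2096 to 2742 CPM in KO, and Ptpn22, Ptpn11, Inpp5d and Cbl had log2 fold changes of 0.35, 0.07, −0.05 and 0.25. None of the 7 genes of the PLCG, PKC and DGK arm was called, from Plcg1 at −0.67 (17.6 to 43.8 CPM over all libraries, SE 0.27) to Prkcq at 0.49. Prkcd had 293 to 329 CPM in WT and 240 to 279 CPM in KO (log2 fold change −0.27, adjusted p = 0.0861), Dgka and Dgkz both had 0.31, and Plcg2 and Prkcb 0.06 and 0.14. The 6 PI3K/AKT genes ran from −0.05 (Akt1) to 0.43 (Pik3r1) with 0 calls, among them Pik3cd (0.13), Pik3cg (0.08), Pik3r5 (0.28) and Akt2 (0.06). Of the 9 RAS/MAPK genes 0 were called, and apart from Rasal3 they lay between −0.05 (Map2k1) and 0.28 (Rasgrp1), with Sos1, Sos2, Hras, Braf, Map2k2 and Mapk3 inside that range. Nfatc3 (0.38), Nfatc1 (0.23), Ppp3cb (0.23), Nfatc2 (0.03) and Ppp3ca (−0.06) made up the NFAT arm, with 0 calls at adjusted p of 0.0665 or more.

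Next, ratios of related genes within the same library were compared, since library size and scaling cancel in them. A difference in cell types between mouse libraries does not cancel, and its part in the ratios was not tested. In every mouse pair without overlap except Nfatc3 to Nfatc2, WT replicate 2 was the WT library nearest to KO, as in the marker sums. In Nfatc3 to Nfatc2 it was the WT library furthest from KO. Of 19 pairs in mouse, 9 had ratios that did not overlap between WT and KO, and of 17 in NK92MI, 9 did not overlap between DMSO and BIX-01294. The share without overlap among other pairs of genes was not counted, so these counts describe the chosen pairs and cannot be called many or few. With 3 libraries against 3 the exact permutation test, two-sided, cannot go below p = 0.1, and adjusted over the pairs of a species the smallest values were 0.211 in mouse and 0.189 in NK92MI. No pair therefore passed a threshold of 0.05, and the ratios are given as values.

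The SYK to ZAP70 ratio differed in opposite directions. In mouse there were 4.26, 2.5 and 4.48 Syk reads per Zap70 read in WT and 2.08, 1.75 and 1.94 in KO, a difference of −0.92 on the log2 scale. In NK92MI there were 0.188, 0.17 and 0.181 SYK reads per ZAP70 read with DMSO and 0.273, 0.269 and 0.225 with BIX-01294, a difference of 0.51. Per kilobase of exon the mean ratio was 1.16 in WT and 0.613 in KO NK cells, and 0.183 and 0.260 in the human line. The ratio of the calcineurin genes also went opposite ways: Ppp3cb to Ppp3ca was 0.539, 0.577 and 0.542 in WT and 0.67, 0.72 and 0.648 in KO (difference 0.30), and PPP3CB to PPP3CA was 0.411, 0.384 and 0.436 with DMSO and 0.242, 0.256 and 0.265 with BIX-01294 (difference −0.69). The Ppp3cb values in CPM were 78.9, 81.8 and 76.7 in WT and 91.9, 92 and 95.3 in KO (log2 fold change 0.23, adjusted p = 0.0665 by edgeR). The 3 WT libraries lay close together in them, and WT replicate 2 was again the one nearest to KO.

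The FYN to LCK ratio was lower in both systems. It was 1.51, 1.42 and 1.69 in WT against 1.23, 1.14 and 1.21 in KO (difference −0.37), and 3.5, 3.16 and 3.32 with DMSO against 2.57, 2.61 and 2.64 with BIX-01294 (difference −0.35). In mouse both genes had higher means and Lck the larger change, and in NK92MI both fell and FYN fell more. The largest shift in mouse was that of Lyn to Lck, from 1.12, 0.561 and 1.22 in WT to 0.427, 0.284 and 0.341 in KO (difference −1.40), followed after Syk to Zap70 by Vav2 to Vav1 (difference −0.86), in which Vav1 itself was not called, at 205, 195 and 210 against 198, 227 and 213 CPM. Prkcb to Prkcq was lower in KO (difference −0.39), with Prkcq at 133, 225 and 145 CPM in WT and 208, 239 and 258 CPM in KO beside 169, 218 and 183 and 180, 201 and 245 CPM of Prkcb. Nfatc3 to Nfatc2 was 2.81, 2.63 and 2.86 in WT and 3.49, 3.31 and 3.7 in KO (difference 0.34), with 240, 286 and 250 against 291, 340 and 375 CPM of Nfatc3 and 85.4, 109 and 87.4 against 83.3, 103 and 101 CPM of Nfatc2. In NK92MI, LAT2 to LAT went from 3.72, 4.69 and 3.21 to 6.29, 4.84 and 6.15 (difference 0.58), PRKCD to PRKCQ was higher by 0.52 and MAP2K2 to MAP2K1 had a difference of −0.52 on the log2 scale, the last from 1.33, 1.5 and 1.32 to 1, 0.869 and 1.02.

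**Figure D4:**
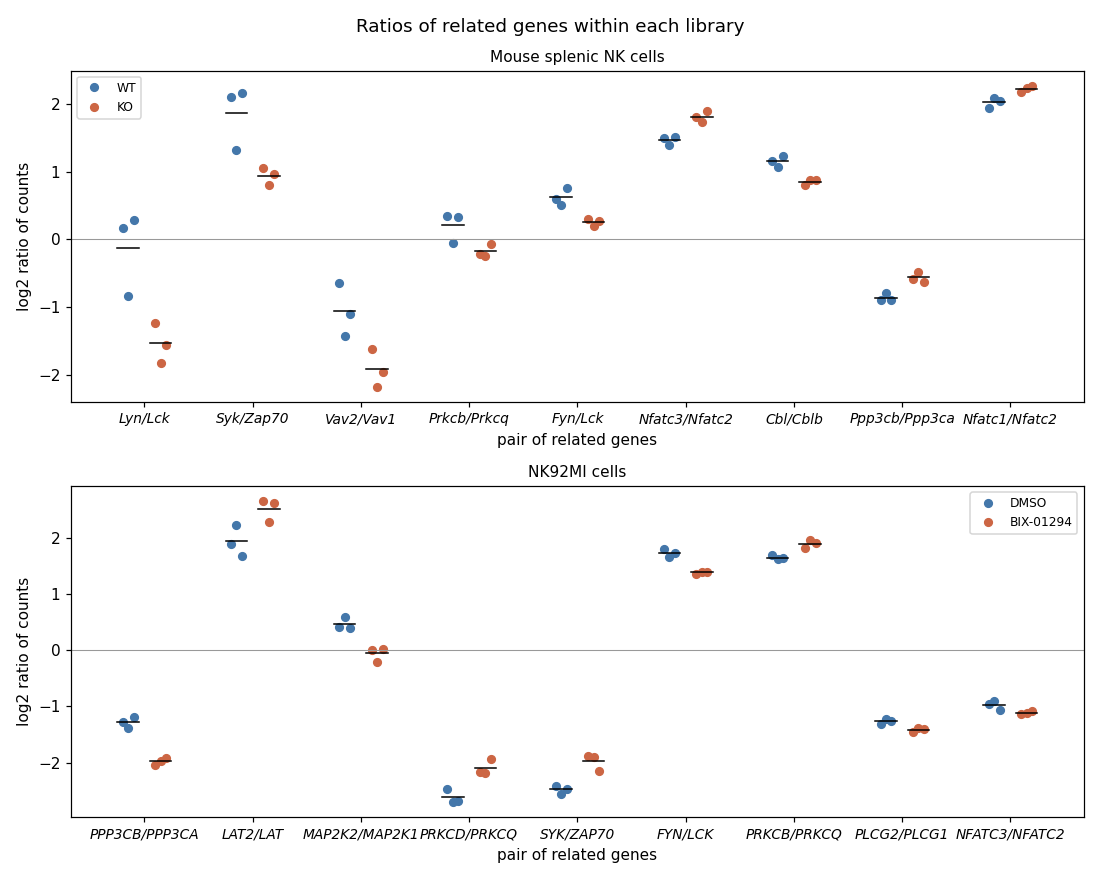
Log2 ratio of the counts of related genes in each library (points; bars are means of 3) for the 9 pairs per system that did not overlap between groups, mouse above and NK92MI below, ordered by the size of the difference. Syk/Zap70 and Ppp3cb/Ppp3ca shift in opposite directions in the mouse and human panels, and Fyn/Lck shifts downward in both.

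The untreated cells differed in the levels of related genes, compared here only as levels per kilobase of exon, with species, tissue and culture all different. The lengths join all annotated exons of a gene, from a separate annotation for each species, and can differ widely. Txk had 142 CPM in WT and TXK 144 CPM with DMSO, on 10955 and 3466 exon bases, so its place below depends in part on the annotated length. In CPM alone Txk was also last of the mouse kinases, below Zap70 (155), while TXK stood above LCK (85.4) and SYK (48.5). In WT mouse NK cells the kinases ran from Csk (167 CPM per kb), Fyn (141) and Lck (138) through Lyn (89.6), Syk (59) and Zap70 (51.9) to Txk (13). In NK92MI with DMSO the order was CSK (56.8), ZAP70 (50.9), TXK (41.4), FYN (38.3), LYN (28.2), LCK (25.6) and SYK (9.31). PLCG2 was the main phospholipase in mouse, at 71.9 CPM per kb beside 4.59 of Plcg1, and PLCG1 in NK92MI, at 22.3 beside 4.9 of PLCG2. Without division by length the levels were 309 and 36.1 CPM of Plcg2 and Plcg1, and 89.8 and 215 CPM of PLCG2 and PLCG1. Ptpn6 was at 216 CPM per kb in mouse and at 2.22 in the line. Prkcd stood at 56.1 and 3.89, and Sos1 at 3.15 and 26.2. Myeloid and B cell markers were counted in the mouse libraries, as given above, and Lyn, Syk, Plcg2, Ptpn6 and Prkcd are genes that such cells express too, so the NK share of these mouse levels was not tested.

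In a side-by-side view, the knockout and the inhibitor had different signs for most of the set. Of 47 members measured in both, 14 (29.8%) had the same sign of log2 fold change, beside 49.4% of the 8790 genes tested in both, and 27 (57.4%) were higher in KO and lower with BIX-01294, beside 28.2%. No library is shared by these comparisons, but members within a species are not independent of each other. Of the 8790 genes 387 were called in both comparisons, 199 of them in opposite directions. The members called in both were LYN, lower in both (−0.67 and −0.19), and LCK, higher in KO and lower with BIX-01294 (0.73 and −0.32). RASAL3 was the furthest apart, at 0.55 in KO, where it was not called, and −0.97 with BIX-01294, and ZAP70, TXK, FYN, LAT, DGKA and DGKZ had the same pair of signs. Whether the effects differ between the systems was not tested. With the mouse libraries scaled to the sum of the 12 NK markers, which moved the median of all mouse genes to −0.82, the fold changes of all 50 mouse members were under 0 and 34 of the 47 had the same sign, so that these signs in mouse are relative to total RNA and not to NK marker RNA. Relative to the median of all genes the set's median was 0.08 higher under TMM and 0.09 higher under that scaling.

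**Figure D5:**
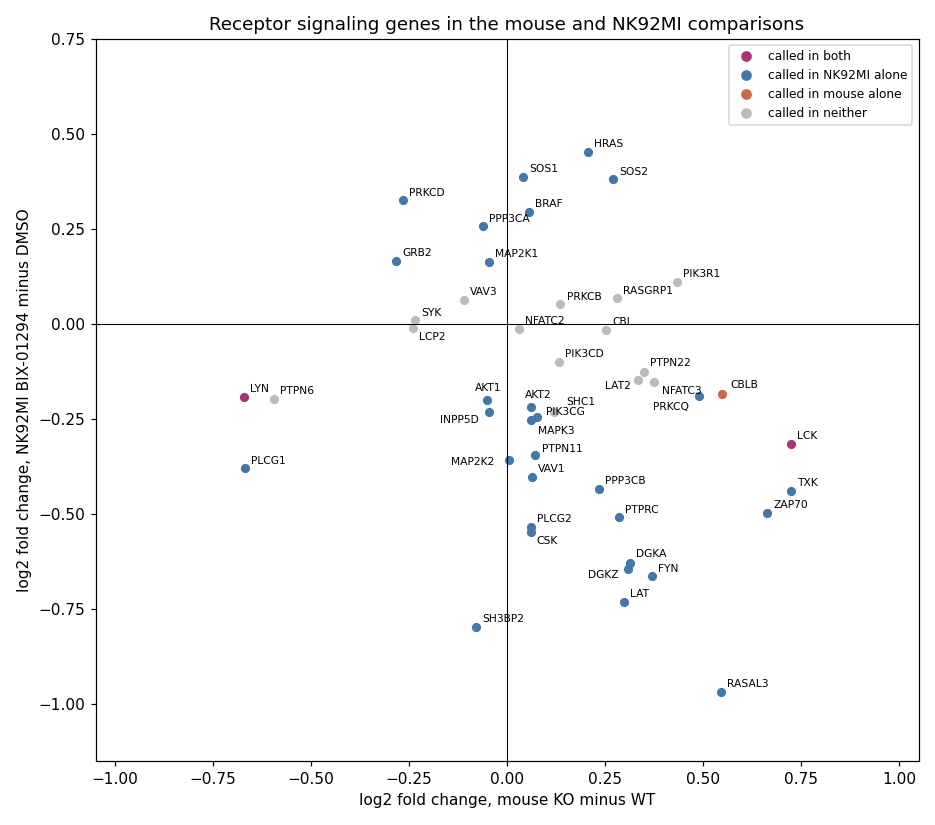
Log2 fold change of each of 47 genes in mouse (KO minus WT, horizontal) and in NK92MI (BIX-01294 minus DMSO, vertical), colored by the system in which edgeR called it. The lower right part, higher in KO and lower with BIX-01294, holds 27 genes, with RASAL3, LAT, FYN, DGKA, DGKZ, ZAP70 and TXK far from the center.

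Last, 64 further genes of the same pathways, none of them a member, were counted in the same fits. In NK92MI 18 of 54 tested (33.3%) were called lower and 11 (20.4%) higher, beside 18.4% of all genes in each direction. PRKCE, the epsilon protein kinase C, had the smallest p and rose from 33.3 ± 1.95 to 94 ± 7.38 CPM (SD, n = 3; log2 fold change 1.499, adjusted p = 2.46e-08 by edgeR), while PRKCQ and PRKCD of the set moved by −0.19 and 0.33. PAG1, the membrane adaptor that holds CSK near SRC kinases, rose (log2 fold change 0.51) where CSK fell, and RRAS2 (0.41), the adaptor NCK2 (0.54), the calcium channel ITPR1 (0.38) and the kinase TEC (0.66) rose too. Among those that fell, INPP4B (−1.03) is a lipid phosphatase that limits PI3K signals, UBASH3A (−0.71) is a negative regulator of antigen receptor signals, DGKD (−0.52) is a further diacylglycerol kinase, and SH2D2A (−0.77) and PIK3AP1 (−0.63) are adaptors. The count of 18 became 10 without DMSO column 1, beside 13.8% of all genes called lower, and 9 without BIX replicate 1, beside 12.5%.

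In mouse 10 of 62 tested (16.1%) were called lower and 4 (6.45%) higher in KO, beside 7.43% and 4.44% of all genes. Those higher included Ubash3a (log2 fold change 0.77), Dok2 (0.93) and Araf (0.36). Those lower included Blnk (−1.97), the SLP-76 relative of B cells, and Btk (−1.11), the TEC kinase of B and myeloid cells, at 71.6 ± 24.7 and 18.3 ± 11.3 CPM for Blnk (SD, n = 3) in WT and KO. Ptprj (−0.77), Itpr1 (−0.35), Nf1 (−0.45) and Fyb (−0.37) were lower too. Among the genes called in both systems, singled out after their values were seen, UBASH3A and ARAF were higher in KO and lower with BIX-01294, ITPR1, BTK and GAB2 the other way round, and FGR was lower in both. In NK92MI, BTK (mean 0.274 CPM with DMSO and 0.893 CPM with BIX-01294) and GAB2 (0.918 and 1.98 CPM) were close to the floor of counting. The mouse counts became 0 and 0 without WT replicate 1 or 3 or KO replicate 2 or 3, the fits with at most 0.48% of all genes called in either direction. The count called higher became 15 without WT replicate 2, beside 10.7% of all genes, and 7 without KO replicate 1, beside 5.17%.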

How the data were processed

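RNA-seq of 6 mouse and 6 human libraries was used. Per the labels, the authors used fastp 0.23.4, STAR 2.7.11b and HTSeq 2.0.3 with GRCm38/mm10 and GRCh38/hg38, and they deposited raw counts per gene symbol. Alignment allowed 2 mismatches. The annotation release and strand setting are not given in the sources used here. Overlapping and antisense genes are therefore uncertain.

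Each species was fitted in edgeR 4.0.16 (R 4.3.3) by the quasi-likelihood test after TMM scaling and filterByExpr, with Benjamini-Hochberg adjustment over all genes tested. Where no tool is named, an adjusted p is from this test. Groups came from sample titles. Exon lengths and positions came from GENCODE M21 and 44. Ratios used counts plus 0.5 and an exact permutation test over libraries. The members, arms, pairs and lists were chosen with earlier results of these data known.

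Every member was counted by arm. Values in every library are given for called members (the 16 smallest p per direction) and for the 6 pairs with the largest differences without overlap, and up to 6 other pathway genes per direction are named. Some genes that these rules would name are not reported here. Alternatives were DESeq2 1.42.0, limma-voom (limma 3.58.1), other scalings, filters and thresholds, the replicate number as a block, and each library left out. The test was checked on simulated counts.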

Additional observations from a re-analysis of the deposited data

How the results depend on the processing

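In NK92MI, leaving out 1 library in turn gave 19 to 27 members lower, beside 12.5% to 18.7% of all genes, and 5 to 8 higher, beside 14.1% to 19.8%. These fits gave a median of −0.23 to −0.18 and, of the other pathway genes, 9 to 19 lower and 9 to 15 higher. The study's threshold gave 9 lower and 0 higher by edgeR, and DESeq2 with an adjusted p under 0.05 and the same fold limit gave 9 and 0. Other scalings, filters and tools kept the human counts within 1.5 times.

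In mouse, where 2 members were higher and 2 lower, leaving out 1 library in turn gave 0 to 12 higher and 0 to 5 lower, a median of 0.06 to 0.16, 9 to 14 ratios without overlap, and 0 to 15 and 0 to 12 other pathway genes. DESeq2 gave 9 higher, 5 lower and 7 other pathway genes higher, or 5 and 4 members with the fold limit, for which the share of all genes was not counted. Without a filter 5 were higher. In edgeR the study's threshold gave 0 and 0, and an unadjusted p under 0.05 gave 15 and 6. Without WT replicate 2 and KO replicate 1, 20 were higher and 7 lower, with a median of 0.21. Scaling to the NK markers gave 0 higher and 31 lower, a median of −0.74 (all genes −0.82), Lck at −0.061, Cblb at −0.27, and 34 members with the same sign in both systems. These follow from the scaling itself, which shifts all genes. The other causes were not tested.

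Replicate numbers do not show a pairing of the mouse samples: deviations of same-numbered WT and KO libraries correlated at 0.28, 0.35 and −0.19, and replicate 3 did not correlate best with its own number. With the number as a block 15 of 50 members were higher, beside 9.8% of all genes, and 5 of 50 lower, beside 14.6%, the 4 called without it among them. Of the ratios, 15 had 1 sign in all numbered differences. No block could be fitted in human, since the DMSO columns carry no sample number.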
